A study of Saccharomyces cerevisiae with 12 samples.

Results

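The inositol and choline phospholipid genes described here are 10 genes of *Saccharomyces cerevisiae*: the regulators *INO2*, *INO4* and *OPI1*, the inositol genes *INO1* and *ITR1*, and *CHO1*, *PSD1*, *CHO2*, *OPI3* and *CKI1* for the synthesis of phospholipids. Members were the genes of this list that the platform annotation paired with a probe set of their own. All 10 were found, with 1 probe set each, among 5449 genes in all. Polyadenylated RNA was measured on 12 arrays, 3 each for wild-type, *top1Δ*, *top2ts* and *top1Δtop2ts*. All strains derive from W303a, of mating type a. *top1Δ* carries a deletion of *TOP1*, *top2ts* a temperature-sensitive allele of *TOP2*, and *top1Δtop2ts* both. Every culture, wild-type included, was grown in the rich medium YPD, arrested in G1 with α-factor for 90 min at 25°C and then kept for 90 min at 37°C with α-factor, so each strain was heat-shifted and the Top2p of *top2ts* was inactivated in the same step. The sources used here do not say whether a strain was represented by 1 clone or several.

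Yeast makes inositol from glucose-6-phosphate or takes it up, and phosphatidylinositol, phosphatidylserine and the other phospholipids are built from the shared precursors phosphatidate and CDP-diacylglycerol. Ino2p and Ino4p are basic helix-loop-helix proteins that bind together to the inositol-sensitive element in the promoters of many of these genes and activate them. Opi1p represses the same promoters: it is held at the endoplasmic reticulum while phosphatidate is plentiful and enters the nucleus when inositol is supplied and phosphatidate is consumed. *INO1* is the classic and most strongly regulated target of this circuit, which makes the set a test case for how a repressible pathway stood in cells lacking topoisomerases.

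The level of all genes has to be kept in view beside each value. The deposited signals were used on their own scale, on which the median gene was lower than in wild-type by a log2 change of -0.17 in *top1Δ*, -0.22 in *top2ts* and -0.54 in *top1Δtop2ts*, while 36 spike-in probe sets differed from wild-type by at most 0.15. The study took equal numbers of cells for all strains and added the spike-ins to them. In bulk RNA, fewer cells that express a given gene and less of its RNA per cell cannot be told apart. The arrays of replicate 2 were dimmer in all strains, with spike-ins at 9.88 to 10.01 against 10.85 to 11.08 in the other replicates. In a fit that leaves the replicate out of account (unblocked), dropping 1 array therefore also unbalances the strains for this offset. How far this moved single calls was not tested. *TOP1* was at 0.933 ± 0.231 (mean signal ± SD, 3 arrays) in *top1Δ* and 3.50 ± 5.20 in the double mutant, against 1041 ± 269 in wild-type, while *TOP2*, whose allele is not a deletion, was at 2666 ± 1232 in *top2ts* against 2878 ± 1218. The 7 a-cell markers summed to 54045 to 64754 in wild-type, 45079 to 60960 in *top1Δ*, 43324 to 81184 in *top2ts* and 39163 to 66094 in *top1Δtop2ts*, and 0 of 7 passed. The 4 α-cell markers summed to 765 to 1396 in wild-type, 672 to 942 in *top1Δ*, 967 to 1452 in *top2ts* and 1164 to 1674 in *top1Δtop2ts*, where 1 of 4 rose (3 with replicates blocked). The 7 pheromone response genes summed to 48027 to 55137 in wild-type, 42954 to 53065 in *top1Δ*, 47815 to 91059 in *top2ts* and 34927 to 55143 in *top1Δtop2ts*. Of them 0 passed in *top2ts*, or 5 with replicates blocked. Of the 6 S phase and G2/M markers 4 fell in *top1Δtop2ts*, where their summed signal was 4821 to 8804 against 12819 to 23859 in wild-type. With replicates blocked, 1 a-cell marker rose in *top2ts*, 1 α-cell marker fell in *top1Δ* and 1 rose in *top2ts*. Of the pheromone response genes 1 rose and 2 fell in *top1Δtop2ts* with the block. Of the S phase and G2/M markers 2, 1 and 6 then fell in *top1Δ*, *top2ts* and *top1Δtop2ts*. The part of these marker lists in the results was not tested. All 10 phospholipid genes were well measured, since their lowest signal on any array, 229, was 12.5-fold above the level of the 17 Tag controls.

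**Figure D1:**
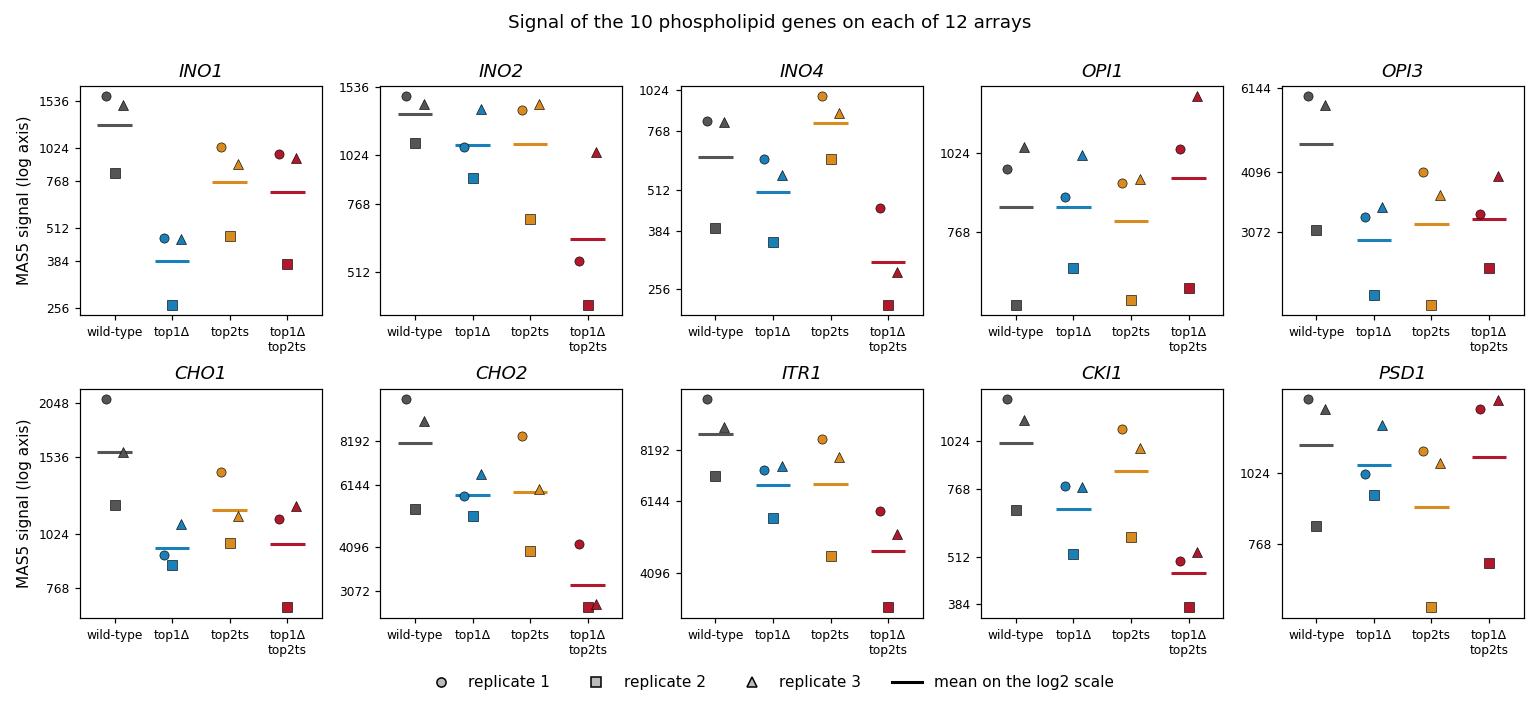
The MAS5 signal (log axis) of each of the 10 genes on each of the 12 arrays, by strain, with circles, squares and triangles for replicates 1, 2 and 3 and a bar for the mean on the log2 scale. The *top1Δ* signals of *INO1* (263 to 468) lie below every other *INO1* signal except that of *top1Δtop2ts* replicate 2 (373), and the *top1Δtop2ts* signals of *CHO2* (2765 to 4179) and *CKI1* (377 to 526) lie below every wild-type signal of these genes.

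Among the activators, *INO2* and *INO4* were lowest in *top1Δtop2ts*. *INO2* gave 1452, 1105 and 1391 on the wild-type arrays (replicates 1 to 3) and 547, 422 and 1047 on those of *top1Δtop2ts*. All 3 double-mutant arrays lay below the lowest wild-type array, though replicate 3 by little. The fall was -1.07 ± 0.39 on the log2 scale (SE, adjusted p = 0.0432 from limma, 0.000161 with replicates blocked). In *top1Δ* (1075, 895 and 1350.2) and *top2ts* (1339.8, 702 and 1389.7) the signals overlapped those of wild-type, and changes of -0.26 in both did not pass with or without the block.

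*INO4*, whose product pairs with Ino2p, was the one member with a positive change in *top2ts*. Its signals were 824, 391 and 821 in wild-type, 979.9, 632 and 872 in *top2ts*, and 451, 229 and 288 in *top1Δtop2ts*. Each *top2ts* array was above the wild-type array of the same number, at 119%, 161% and 106%, which held for 6.75% of all genes. The groups overlapped, however, and the change of 0.34 did not pass (adjusted p = 0.995 without and 0.188 with the block). Unblocked, the rise passed with quantile normalization (0.59, adjusted p = 0.0455 from limma). It did not pass with equal medians (0.58, 0.0579) or spike-in scaling (0.34, 0.542). In *top1Δtop2ts* each array stood at 35.1% to 58.6% of its wild-type counterpart, and the groups overlapped only because wild-type replicate 2 was low. That fall of -1.05 ± 0.39 passed (adjusted p = 0.0473, with the block 4.78e-05). In *top1Δ* the signals were 631, 356 and 569, with a change of -0.35 that did not pass.

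The difference in *INO4* between *top1Δtop2ts* and *top2ts* was itself tested and came to -1.39 (95% interval -2.16 to -0.62, adjusted p = 0.00858 from limma). All 3 *top1Δtop2ts* arrays lay below all 3 *top2ts* arrays. The call was lost without *top2ts* replicate 1 or 3 or *top1Δtop2ts* replicate 2 or 3, with adjusted p from 0.0521 to 0.0684.

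*OPI1*, the repressor, did not follow the activators. Its signals were 968, 588 and 1047 in wild-type, 873, 674 and 1017 in *top1Δ*, and 919, 599 and 932 in *top2ts*. The double mutant gave 1039.5, 624 and 1262. Every group overlapped every other. Each *top1Δtop2ts* array was nonetheless above its same-numbered wild-type array, at 107%, 106% and 121%, which held for 7.63% of all genes. The change of 0.15 did not pass (adjusted p = 0.787 without and 0.371 with the block). Relative to the median gene it was higher: with the arrays set to equal medians the change was 0.68 and passed (adjusted p = 0.00230), whereas with spike-in scaling it was 0.01. The changes of 0.00 in *top1Δ* and -0.07 in *top2ts* did not pass under either scaling.

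The largest change of any member was that of *INO1*, which encodes inositol-3-phosphate synthase, the enzyme that makes inositol from glucose-6-phosphate, and it was seen in the single mutant *top1Δ*. *INO1* gave 1603, 823 and 1487 in wild-type and 468, 263 and 466 in *top1Δ*. Each *top1Δ* array held 29.2% to 31.9% of the signal of its wild-type counterpart, and the groups did not overlap. The log2 change was -1.70 (95% interval -2.47 to -0.93), a signal 3.25-fold lower, and only 0.422% of all genes changed further downwards. It passed without the block (adjusted p = 0.00313 from limma) and with it (1.64e-06), and relative to the change of the median gene it was -1.53. The call was lost without wild-type replicate 1 (adjusted p = 0.105), wild-type replicate 3 (0.112) or *top1Δ* replicate 2 (0.246), with changes between -1.57 and -1.42.

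*INO1* was not lower still in the double mutant. The *top2ts* arrays gave 1031, 477 and 894, at 58.0% to 64.3% of wild-type. Those of *top1Δtop2ts* gave 968, 373 and 937, at 45.3% to 63.0%, and in each replicate set this signal was nearer to that of *top2ts* than to that of *top1Δ*. Neither change from wild-type, -0.72 in *top2ts* and -0.85 in *top1Δtop2ts*, passed in the unblocked fit (adjusted p = 0.995 and 0.112), while both did with the block (0.00696 and 0.000173). In *top1Δtop2ts* the call was gained without wild-type replicate 2 (adjusted p = 0.0225) and with spike-in scaling (-0.99, 0.000423). With equal medians the *top1Δtop2ts* change was -0.32 and did not pass unblocked (adjusted p = 0.147 from limma). On the deposited scale 26.1% of all genes changed further downwards in this strain. The change was -0.38 in *top2ts* without *top2ts* replicate 2, and -0.39 in *top1Δtop2ts* without *top1Δtop2ts* replicate 2.

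The double mutant exceeded *top1Δ* in *INO1* by 0.85 (95% interval 0.08 to 1.62), which did not pass (adjusted p = 0.167) but did with the block (0.000253). It passed unblocked without *top1Δtop2ts* replicate 2 (1.30, 0.0355), and also with equal medians (1.18, 0.000180), quantile normalization (1.11, 0.000296) and spike-in scaling (0.74, 0.00902). In each replicate set the *top1Δtop2ts* signal was above that of *top1Δ*. Between *top2ts* and *top1Δ* the difference was 0.98 (adjusted p = 0.509, with the block 0.000482), and it passed unblocked with equal medians (1.02, 0.00181), quantile normalization (0.96, 0.00279) and spike-in scaling (1.01, 0.00444). *top1Δtop2ts* and *top2ts* differed by -0.13 (95% interval -0.90 to 0.64).

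*ITR1* encodes the major myo-inositol transporter of the plasma membrane. It gave 10917, 7064 and 9336 in wild-type and 5788, 3367 and 5108 in *top1Δtop2ts*, where every array was below all wild-type arrays. The fall of -0.95 ± 0.39 missed the threshold (adjusted p = 0.0729 from limma) and passed with the block (5.31e-05). It also passed without the block when wild-type replicate 2 (0.0251) or *top2ts* replicate 2 (0.0328) was left out. The signals of *top1Δ* (7330.1, 5574 and 7474) and *top2ts* (8695, 4503 and 7869) overlapped wild-type, and changes of -0.41 in both did not pass with or without the block.

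*CHO1* encodes phosphatidylserine synthase, which joins serine to CDP-diacylglycerol. Wild-type gave 2091, 1193 and 1575, *top1Δ* 915, 867 and 1079, and *top1Δtop2ts* 1106, 693 and 1183. In both mutants all arrays were below the lowest wild-type array. The changes were -0.73 in *top1Δ* and -0.70 in *top1Δtop2ts*, neither of which passed unblocked on the deposited scale (adjusted p = 0.875 and 0.184) and both of which did with the block (0.00863 and 0.00179). Unblocked with equal medians, *CHO1* passed in *top1Δ* (-0.54, adjusted p = 0.0293) and not in *top1Δtop2ts* (-0.18, 0.306). With spike-in scaling it passed in *top1Δtop2ts* (-0.85, 0.00446) and not in *top1Δ* (-0.76, 0.0649). In *top2ts* the signals were 1423, 976 and 1122, overlapping wild-type, with a change of -0.44 that did not pass in either fit.

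*PSD1*, for the mitochondrial decarboxylase that turns phosphatidylserine into phosphatidylethanolamine, was the other member besides *OPI1* that stayed close to wild-type in *top1Δtop2ts*. It gave 1379.6, 825 and 1328 in wild-type and 1323, 711 and 1375 in *top1Δtop2ts*, a change of -0.08 that did not pass. With equal medians the sign turned and the change of 0.45 passed (adjusted p = 0.0103). In *top1Δ* (1019, 936 and 1242) and *top2ts* (1116, 594 and 1067) changes of -0.12 and -0.37 did not pass in either fit.

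*CHO2* encodes the methyltransferase for the initial methylation of phosphatidylethanolamine on the way to phosphatidylcholine. Its signals were 10811, 5271 and 9385 in wild-type and 4179, 2765 and 2831 in *top1Δtop2ts*. They were 5742, 5044 and 6599.5 in *top1Δ* and 8485, 4005 and 6009 in *top2ts*. The double-mutant arrays were below the lowest wild-type array, at 30.2% to 52.5% of their counterparts. The fall of -1.34 (95% interval -2.11 to -0.57), a signal 2.54-fold lower, had the smallest adjusted p of the members in *top1Δtop2ts* (0.00883 from limma, with the block 1.41e-05). Still, 6.15% of all genes changed further downwards in this strain, against 0.422% for *INO1* in *top1Δ*. Changes in the single mutants, -0.49 and -0.46, did not pass in either fit. They were -0.81 and -0.77 without wild-type replicate 2, and -0.29 in *top1Δ* without wild-type replicate 1 and -0.19 in *top2ts* without *top2ts* replicate 2.

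*OPI3* encodes the methyltransferase of the remaining methylation steps, and its profile differed from that of *CHO2*. Wild-type arrays gave 5896, 3101 and 5666. The *top1Δ* arrays gave 3293, 2262 and 3468, those of *top2ts* 4106, 2162 and 3665, and those of *top1Δtop2ts* 3348, 2586 and 4012. Every mutant array was below its same-numbered wild-type array, but all mutant groups overlapped wild-type, whose replicate 2 was low. Of all genes 39.8%, 58.3% and 72.4% were below in all 3 pairs in *top1Δ*, *top2ts* and *top1Δtop2ts*. The 3 changes were -0.67, -0.56 and -0.53, and none passed unblocked on the deposited scale (adjusted p = 0.979, 0.995 and 0.325), while all passed with the block (0.00830, 0.0311 and 0.00690). Unblocked, the *top1Δ* change passed with equal medians (-0.47, adjusted p = 0.0303) but not with spike-in scaling (-0.70, 0.0700). The *top1Δtop2ts* change passed with spike-in scaling (-0.67, 0.0142). Without *top2ts* replicate 2 the *top2ts* change was -0.28, and without wild-type replicate 2 the changes were -0.97, -0.86 and -0.82. In *top1Δtop2ts* the change was -0.00 with equal medians.

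*CKI1* encodes choline kinase, which starts the synthesis of phosphatidylcholine from free choline. It gave 1321, 678 and 1162 in wild-type and 498, 377 and 526 in *top1Δtop2ts*, which lay below every wild-type array. The fall was -1.13 ± 0.39 (adjusted p = 0.0314 from limma, with the block 1.07e-05). In *top1Δ* the signals were 782, 519 and 776, a change of -0.58 that passed only with the block (0.0185), and in *top2ts* they were 1101, 577 and 983, with a change of -0.25 that did not pass in either fit.

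**Figure D2:**
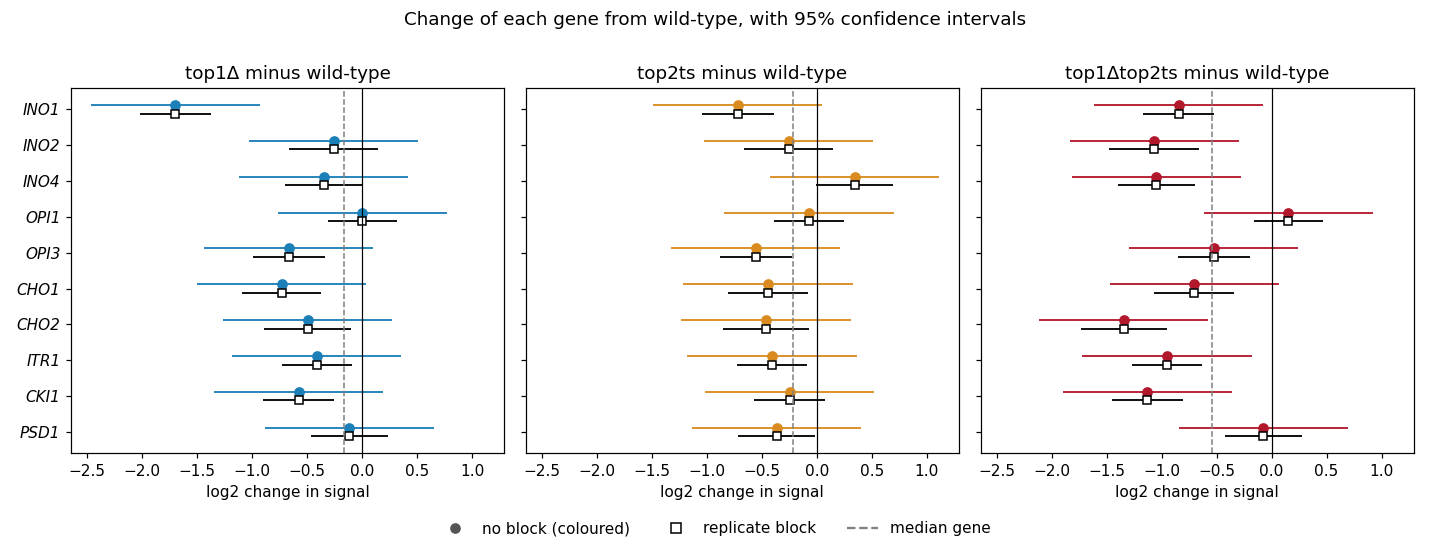
The log2 change of each gene from wild-type in each mutant, with 95% intervals from the fit without a block (coloured circles) and with replicates blocked (open squares), and a dashed line at the median gene. *INO1* in *top1Δ* lies at -1.70, and in *top1Δtop2ts* *OPI1* (0.15) and *PSD1* (-0.08) stand to the right of the other 8 genes.

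Counted over the members, 1 of 10 fell in *top1Δ*, where 0.936% of all genes fell. It was *INO1*. With the block there were 4 (*INO1*, *OPI3*, *CHO1* and *CKI1*), against 12.4% of all genes. In *top2ts* 0 of 10 passed, against 0.863% of all genes, and 0 had an unadjusted p under 0.05, against 4.40%. With the block *INO1* and *OPI3* fell there, against 9.08%. In *top1Δtop2ts* 4 of 10 fell (*INO2*, *INO4*, *CHO2* and *CKI1*), against 15.1% of all genes, and 8 of 10 with the block, against 62.7%. The latter is close to the share among all genes. On the deposited scale no member rose in the unblocked or the blocked fit of any mutant against wild-type. Of all genes 0.0551%, 0.330% and 1.25% rose unblocked in *top1Δ*, *top2ts* and *top1Δtop2ts*.

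The unblocked calls in *top1Δtop2ts* rested on few arrays and on the scale. All 4 were lost without wild-type replicate 1 or 3, with adjusted p from 0.0877 (*CHO2*) to 0.265 (*INO4*). *CKI1* was also lost without *top1Δtop2ts* replicate 2 (0.138) or 3 (0.0552). *INO2* was lost without *top1Δtop2ts* replicate 1 (0.0961) or 2 (0.268) and *INO4* without replicate 2 (0.237) or 3 (0.122). Both were lost without any single *top1Δ* array or *top2ts* replicate 3, with adjusted p from 0.0502 to 0.0702. Dropping 1 array also unbalances the replicate sets, of which set 2 was dimmer in all strains. All 4 calls were kept with the block, and with all arrays of replicate 2 left out together. With equal medians *INO4*, *CHO2*, *ITR1* and *CKI1* fell while *OPI1* and *PSD1* rose, against 22.9% of all genes that fell and 21.7% that rose. With spike-in scaling 8 of 10 fell, against 62.6%.

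By overlap alone, all 3 arrays lay below all wild-type arrays for 2 members in *top1Δ* (*INO1* and *CHO1*), against 5.63% of all genes, and for 0 in *top2ts*, against 2.15%. In *top1Δtop2ts* it was 5 members (*INO2*, *CHO1*, *CHO2*, *ITR1* and *CKI1*), against 28.7%. Over the members the changes had a median of -0.45 for *top1Δ*, -0.39 for *top2ts* and -0.90 for *top1Δtop2ts*, beside -0.17, -0.22 and -0.54 over all genes. The 3 comparisons share the wild-type arrays.

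**Figure D3:**
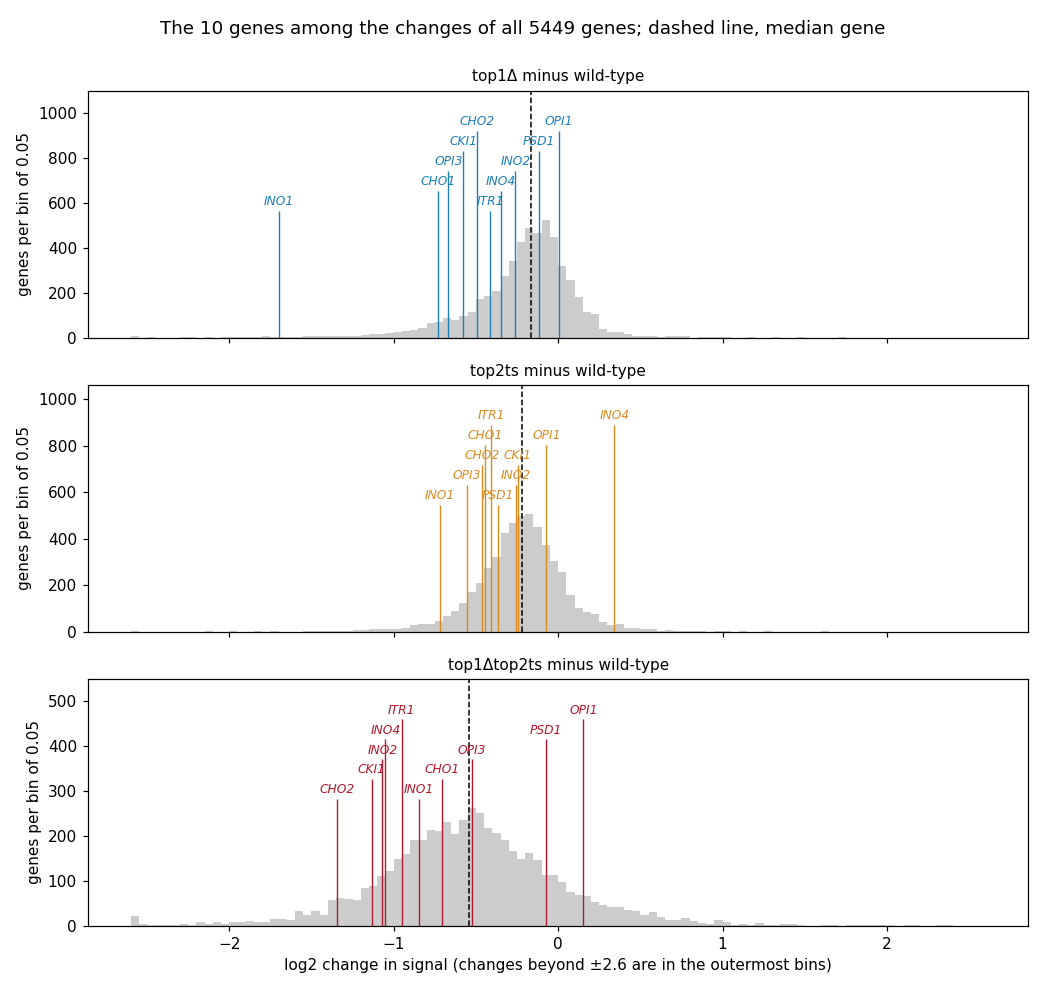
The number of genes per bin of log2 change among all 5449 genes (grey) in each mutant, with the 10 genes marked by lines and the median gene by a dashed line. *INO1* in *top1Δ* stands in the sparse lower tail, *INO4* in *top2ts* lies above 97.2% of genes, and in *top1Δtop2ts* the members spread from -1.34 (*CHO2*) to 0.15 (*OPI1*).

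Whether the double mutant equalled the sum of the single mutants was asked for each gene by the departure from additivity, the log2 change in *top1Δtop2ts* minus the sum of the changes in *top1Δ* and *top2ts*. *INO1* departed most, by 1.57 ± 0.55 (95% interval 0.48 to 2.66), so its signal in the double mutant was above the sum of the separate falls. Its unadjusted p was 0.0046 and its adjusted p 0.129 from limma, and it passed with the block (8.08e-05). *INO4* departed the other way, by -1.04 (adjusted p = 0.605, with the block 0.00413): a fall in the double mutant stood against a positive value in *top2ts*. It passed unblocked with equal medians (-0.96, adjusted p = 0.00903), quantile normalization (-1.04, 0.00503) and spike-in scaling (-1.16, 0.0211), and was -0.69 without wild-type replicate 2. *OPI3* departed by 0.70 (adjusted p = 0.920, with the block 0.0284), and by 0.42 without *top2ts* replicate 2. Unblocked, its departure passed with equal medians (0.79, adjusted p = 0.00480) and not with spike-in scaling (0.58, 0.277).

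In the unblocked fit 0 of 10 departures passed, against 2.33% of all genes, and 1 member, *INO1*, had an unadjusted p under 0.05, against 8.99%. With the block 3 passed, against 23.3%. *INO1* also passed unblocked with equal medians (1.66, adjusted p = 0.000413), with spike-in scaling (1.46, 0.00171), and without wild-type replicate 2 (0.0227), *top2ts* replicate 1 (0.0447) or *top1Δtop2ts* replicate 2 (0.0109). The other 7 departures, from -0.55 (*INO2*) to 0.47 (*CHO1*), did not pass with or without the block, though with equal medians those of *CHO1* (0.56, adjusted p = 0.0447) and *PSD1* (0.50, 0.0477) did. Wild-type and single-mutant arrays enter each of these values.

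**Figure D4:**
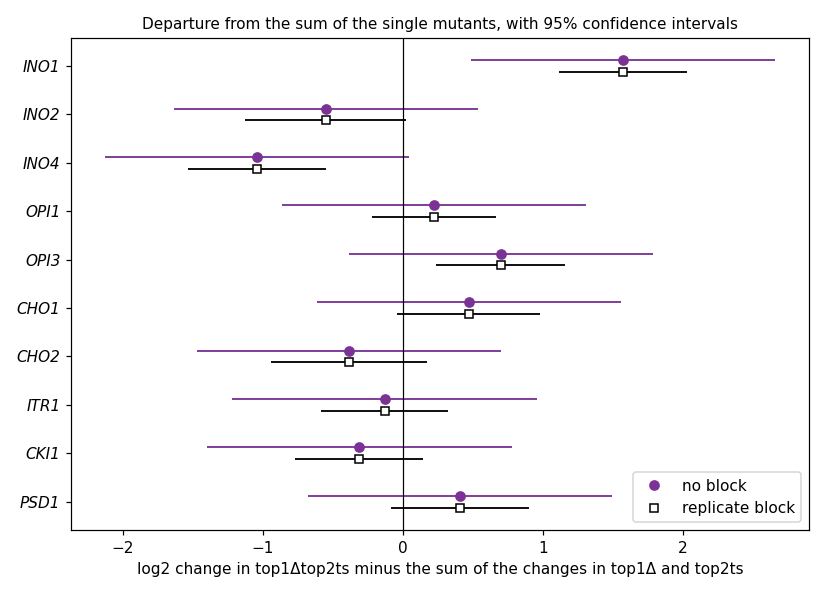
The log2 change of each gene in *top1Δtop2ts* minus the sum of its changes in *top1Δ* and *top2ts*, with 95% intervals without a block (circles) and with replicates blocked (open squares). *INO1* at 1.57 lies to the right of 0 with both intervals, and *INO4* at -1.04 lies to the left with the blocked interval clear of 0.

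The members did not share one pattern over the arrays. With each array's median taken off the log2 signals, Pearson's r over the 12 arrays was 0.73 between *INO1* and *OPI3* and 0.68 between *INO1* and *CHO1*, but -0.06 between *INO1* and *INO2* and 0.09 between *INO1* and *INO4*. *CHO2*, *ITR1* and *CKI1* went together, with r from 0.75 to 0.77. *OPI1* went with *PSD1* (0.86) and opposite to *CHO2* (-0.89). These values describe 12 points in 4 strains, which share the strain differences and the array scaling.

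The genes of the whole table whose pattern was most like that of *INO1* were *RCK1* (r = 0.95), a protein kinase, *GIP1* (0.95), a meiotic partner of the phosphatase Glc7p, *HXT5* (0.94), a hexose transporter, *APE1* (0.94), a vacuolar aminopeptidase, and *YHL042W* (0.94). In *top1Δ* their changes ran from -1.68 (*RCK1*) to -0.99 (*YHL042W*). For *OPI3* they were *MET2* (0.88), for homoserine acetyltransferase, *GYP5* (0.86), *HSH49* (0.85), *AIM21* (0.85) and *CAD1* (0.84). Both sets of genes were chosen over these same 12 arrays, so the values only describe them.

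Around the 10 genes, 64 further genes of the pathway were taken from 6 lists, and all were measured. In *top1Δ* and in *top2ts* 0 of 64 passed in the unblocked fit (1 gene in each had an unadjusted p under 0.05), while 8 and 2 fell with the block, against 12.4% and 9.08% of all genes. In *top1Δtop2ts* 8 of 64 fell and 0 rose, against 15.1% of all genes that fell, and with the block 46 fell, against 62.7%, and 2 rose. The count of 8 was 3 without wild-type replicate 1 or 3 and 24 without wild-type replicate 2. It was 16 without *top2ts* replicate 2, and 13, 4 and 5 without *top1Δtop2ts* replicates 1, 2 and 3. Over all genes the calls in either direction, 889, were 279 without wild-type replicate 1 and 1911 without wild-type replicate 2. Their median change of -0.57 was near that of all genes, and no departure from additivity passed unblocked, where 3 had an unadjusted p under 0.05 (3 passed upwards and 8 downwards with the block).

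Of the 9 genes listed around Opi1p, its anchor and repression, 0 passed in any mutant in limma's unblocked fit. There 1 had an unadjusted p under 0.05, in *top1Δtop2ts*. With the block 1 fell in *top1Δ*, against 12.4% of all genes, and 8 in *top1Δtop2ts*, against 62.7%. *SCS2*, for the endoplasmic reticulum protein that holds Opi1p, gave 8125, 5096 and 6850 in wild-type and 5204, 3486 and 5139 in *top1Δtop2ts* (-0.54, adjusted p = 0.317). Of the 12 other genes of the inositol branch 2 fell in *top1Δtop2ts*. They were *ISC1*, for the phospholipase that cleaves inositol phosphosphingolipids (-1.53, adjusted p = 0.00227), and *VIP1*, for an inositol pyrophosphate kinase (-1.48, 0.00345). *ISC1* gave 3454, 2425 and 2946 in wild-type and 1099.5, 841 and 1102 in the double mutant, with no overlap.

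Among 10 genes of the CDP-choline and CDP-ethanolamine branch, *EPT1*, for an ethanolaminephosphotransferase (-1.10, adjusted p = 0.0372), and *GDE1*, for a glycerophosphocholine phosphodiesterase (-1.16, 0.0261), fell in *top1Δtop2ts*. Of the 16 genes around CDP-diacylglycerol and phosphatidate only *PAH1* did (-1.17, 0.0252). It encodes the phosphatase that turns phosphatidate into diacylglycerol, and gave 1213.5, 572 and 1093 in wild-type and 478, 298 and 468 in *top1Δtop2ts*. In *top1Δ* its signals were 541, 329.6 and 611, which overlapped wild-type. Each was below its same-numbered wild-type array, which held for 39.8% of all genes. Of the 16 genes 0 passed in *top1Δ* unblocked, and 5 fell with the block, against 12.4% of all genes.

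Of 9 genes of fatty acid synthesis *ACS2*, for an acetyl-CoA synthetase, and *FAA1*, for an acyl-CoA synthetase, fell in *top1Δtop2ts*, by -1.57 and -1.56 (adjusted p = 0.00167 and 0.00179). *ACS2* gave 7991, 6209 and 7751 in wild-type and 2993, 2365 and 2066 in the double mutant. Of 8 genes of the unfolded protein response, which is linked to inositol supply, *HAC1*, its transcription factor, fell (-1.24, adjusted p = 0.0170). It gave 5264, 3897 and 4221 in wild-type and 2616, 1422 and 1769 in *top1Δtop2ts*, below all wild-type arrays. These lists were drawn up from textbook knowledge.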

How the data were processed

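Total RNA with poly-A spike-ins, added to equal numbers of cells, was hybridised to Affymetrix Yeast Genome 2.0 arrays, 3 per strain. The deposited values are intensities on a linear scale, made by the authors with MAS5 in the GeneChip Operating software. Values of 0 (4) were raised to 0.1, log2 signals of a gene's probe sets were averaged, and 5449 genes paired with probe sets by the platform annotation were kept. limma 3.58.1 (R 4.3.3) was fitted to all 12 arrays without a block, with 8 residual degrees of freedom, and p-values, two-sided, were Benjamini-Hochberg adjusted over all genes, with a threshold of 0.05. Its pooled prior gave every gene the same standard error, and the number of arrays limits the precision. The replicate numbers were taken as the 3 sets of experiments that the study describes, which the labels do not state. Deviations from the strain means correlated above 0.1 in 10 of 18 same-numbered pairs and in 4 of the 9 that held a wild-type array, and 10 of 12 arrays matched best with their own number. Blocked values are printed where they change a call of a member against wild-type, a departure of a member or a count of a marker list, but not for each pathway list. Spike-ins were the 36 dap, lys, phe and thr probe sets, and 6 TrpnX sets at background (highest signal 17.1) were left out. Alternatives were equal medians, spike-in scaling, quantile normalization, a trend in the prior variance, fits of 6 arrays, no dim genes (mean signal under 18.4, the upper level of the 17 Tag control sets), a pseudocount of 16, the brightest probe set, and arrays left out singly or, for replicate 2, together. Equal medians and spike-in scaling with the block were added after seeing the data. The members, the lists and the tests were chosen with earlier results of these data known. Named genes were all members, each listed pathway gene that passed, up to 4 per list, and the 5 most like *INO1* and *OPI3*. The unblocked comparison of *top1Δtop2ts* with wild-type was tested on simulated data that held no offset shared by a replicate. The block, the scalings and the departure were not tested in this way. Present calls and the build of the probe design were not used here.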

Additional observations from a re-analysis of the deposited data

Results flagged for a closer look

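*INO4* behaved differently between mutants in a pair of comparisons. Its signal in *top1Δtop2ts* was lower than in *top2ts* by a log2 difference of -1.39, which passed the test of the difference itself (adjusted p = 0.00858 from limma). Between *top2ts* and *top1Δ* the difference was 0.69: every *top2ts* array was above, and every *top1Δ* array below, the wild-type array of its number. Of all genes 6.75% were above wild-type in all 3 pairs in *top2ts*, and 39.8% were below in *top1Δ*. The *INO4* difference did not pass in the unblocked fit (adjusted p = 0.9995) but passed with replicates blocked (0.0127), with equal medians (0.73, 0.00967) and with quantile normalization (0.70, 0.0105). With spike-in scaling it did not pass unblocked (0.72, 0.0973). Without *top1Δ* replicate 2 it was 0.44. Both rest on 3 arrays per strain.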

How the results depend on the processing

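The number of members that passed moved with the scale, the block and single arrays. Brackets hold the share of all genes that passed, in either direction. No share is given for the settings without brackets. In *top1Δ* it was 1 (0.991%), but 3 with equal medians (9.38%) and 4 with replicates blocked. These 4 all fell, against 12.4% of all genes that fell in *top1Δ* with the block. The number was 3 with quantile normalization and 3 without the arrays of replicate 2. It was also 4 with the block combined with equal medians or spike-in scaling. In *top2ts* it was 0 (0.863%), but 2 with the block (10.2%). It was 1 with quantile normalization, 1 with equal medians and the block and 2 with spike-in scaling and the block. In *top1Δtop2ts* it was 4 (16.3%), but 6 with equal medians (44.7%), 8 with spike-in scaling (65.1%) and 8 with the block (67.7%). It was 2 with only the 6 arrays compared, 5 with a pseudocount of 16 and 6 with quantile normalization. With either scaling and the block, and without the arrays of replicate 2, it was 8. The members called in a mutant all fell, apart from *INO4*, *OPI1* and *PSD1*. *INO4* rose in *top2ts* with quantile normalization. *OPI1* and *PSD1* rose in *top1Δtop2ts* with equal medians, with or without the block, and with quantile normalization. For the departure the number was 0 (2.33%), but 5 with equal medians (30.2%), 2 with spike-in scaling (10.6%) and 3 with the block (23.3%). It was 5 with quantile normalization, 5 with equal medians and the block, 2 with spike-in scaling and the block and 1 without the arrays of replicate 2. With single arrays left out it ran from 0 to 1 in *top1Δ*, 0 to 0 in *top2ts*, 0 to 6 in *top1Δtop2ts* (0 without wild-type replicate 1 or 3, 1 without *top1Δtop2ts* replicate 2) and 0 to 1 for the departure.

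The signs that turned belonged to changes that had not passed. *OPI1* in *top1Δ* went to -0.028 with spike-in scaling, with or without the block, and -0.10 without the arrays of replicate 2. With equal medians (with or without the block) and with quantile normalization, *PSD1* went to 0.080 and 0.075 in *top1Δ* and 0.45 and 0.47 in *top1Δtop2ts*, *OPI1* in *top2ts* to 0.17 and 0.17, and the difference of *INO1* between *top1Δtop2ts* and *top2ts* to 0.16 and 0.15. Quantile normalization also gave 0.11 for *OPI3* in *top1Δtop2ts* and 0.26 for the departure of *ITR1*. With single arrays left out, the ranges that crossed 0 were -0.26 to 0.16 for *OPI1* and -0.36 to 0.015 for *PSD1* in *top1Δ*, then -0.43 to 0.062 for *INO2*, -0.015 to 0.53 for *INO4*, -0.33 to 0.14 for *OPI1* and -0.54 to 0.037 for *CKI1* in *top2ts*, then -0.11 to 0.45 for *OPI1* and -0.31 to 0.23 for *PSD1* in *top1Δtop2ts*, -0.42 to 0.10 for the departure of *ITR1* and -0.46 to 0.32 for the *INO1* difference. The cause was not tested. *INO1* in *top1Δ* kept its direction under all alternatives run, and its smallest change was -1.42. Leaving out dim genes or taking the brightest probe set changed 0 of 46 single values in direction or call. Over all genes the calls in *top1Δ*, *top2ts*, *top1Δtop2ts* and the departure numbered 54, 47, 889 and 127, against 706, 556, 3687 and 1267 with the block and 511, 333, 2433 and 1647 with equal medians. With single arrays left out they ran from 16 (without *top1Δ* replicate 2) to 133, from 32 (without wild-type replicate 3) to 77, from 279 (without wild-type replicate 1) to 1911 and from 90 (without *top1Δtop2ts* replicate 3) to 205, the highest each without wild-type replicate 2. Of the 64 pathway genes, *top1Δtop2ts* had 8 calls, 48 with the block, 46 with spike-in scaling and 26 with equal medians, and 3 to 24 with single arrays left out.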
